A study of Mus musculus with 6 samples.

Results

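The 10 genes described here, Pdgfra, Pdgfrb, Ly6a, Cd34, Dpp4, Vim, Gsn, S100a4, Thy1 and Pi16, are markers of preadipocytes and fibroblasts. They are taken by symbol, whatever their values, as signs of undifferentiated cells in cultures labelled as adipocytes. All 10 were found among the 35976 rows of the deposited table, 1 row each. Of these, 9 reached a normalized count of 10 in 2 or more libraries and were among the 14211 genes tested; Dpp4 did not. White fat holds fibroblast-like stromal cells that surround the fat-laden adipocytes, and some of these cells are progenitors that can differentiate in culture. In mouse fat, progenitors carry the receptor Pdgfra and the surface antigens encoded by Ly6a and Cd34. An early subset of them is marked by Dpp4 and Pi16, and adipocyte differentiation is accompanied by loss of fibroblast markers and gain of lipid-handling and hormone genes such as Adipoq.

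RNA was sequenced from primary mouse adipocytes whose Ppargc1a alleles are flanked by loxP sites (genotype Ppargc1a(fl/fl)), so every group, controls included, carried the floxed gene and received an adenovirus and an siRNA. The 6 libraries formed 3 groups of 2: Cre virus with Rbm43 siRNA, GFP virus with Rbm43 siRNA, and GFP virus with control siRNA. Cre recombinase excises floxed DNA, and GFP is the inert cargo of the control virus. Virus came before siRNA and full differentiation came before RNA extraction, per the design text. The GFP virus with control siRNA libraries are called control libraries here; the pairing of Cre virus with control siRNA is not analysed here. The labels give neither the animals' age or sex nor the fat depot. They call the samples biological duplicates without naming separate animals, so p-values measure only the spread between these samples. Reads in genes numbered 15775398 to 21961724 per library, and no pair of libraries held identical values.

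The knockdown label was checked with Rbm43 itself, which had 53.8 and 32.5 normalized counts with Cre virus and Rbm43 siRNA and 43.7 and 46.6 with GFP virus and Rbm43 siRNA, against 185 and 224 in the control libraries. Ppargc1a had 463 and 469 normalized counts with Cre virus and 399 and 423 with GFP virus, both under Rbm43 siRNA, a log2 difference of 0.18 ± 0.10 (SE; limma, Benjamini-Hochberg adjusted p = 0.330). Summed over all exons, such a count is no check of the excision. The adipocyte label was checked with Adipoq, the hormone adiponectin. It had 18345 and 18218.5 normalized counts with Cre virus and Rbm43 siRNA, 22452.6 and 23077 with GFP virus and Rbm43 siRNA, and 22094 and 21331 in the control libraries. Adipoq was therefore abundant in all 6 libraries, as were Ly6a, Vim, S100a4, Gsn and Thy1 in the values given below. Cd34, Pi16 and Dpp4 were far lower.

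The markers spanned a wide range of levels. Per kilobase of annotated exon, on the scale of normalized counts averaged over the 6 libraries, Ly6a led with 7813, followed by Vim with 6629 and S100a4 with 6369.95. Gsn had 3773 and Thy1 3369 per kilobase. The receptors came next, Pdgfrb with 999.8 and Pdgfra with 676. Cd34 had 36.1, Pi16 2.80 and Dpp4 1.29 per kilobase. Adipoq, shown for scale, had 15148 per kilobase. Ly6a, Vim, S100a4, Gsn, Thy1, Pdgfrb and Pdgfra each stood above at least 90.8% of the 13298 tested genes with a length. Cd34 stood above 29.0% of them and Pi16 above 2.65%. Dpp4 and Pi16, the early subset markers among those chosen, were therefore near the bottom of the range. Ly6a, Vim, S100a4, Gsn and Thy1 were near the top, and Cd34 was far below them. Other early progenitor genes, named below, were higher than Dpp4 and Pi16. Igfbp6 had 1182, Anxa3 595, Mfap5 1834 and Fbn1 4095 per kilobase. The low levels therefore describe Dpp4 and Pi16, not early progenitor genes as a whole. Ly6a belongs to a family of similar neighbouring genes, between which counting can split reads. The exons of S100a4 overlap those of Gm42674, a protein-coding gene on the same strand, so its count is uncertain to that extent. Transcripts on the opposite strand overlap Pdgfra (Gm42802 and Gm42803), Cd34 (Gm16897), Dpp4 (Gm13561) and Pi16 (AC162182.1). The library kit keeps strand, but the strand setting of the counting is not given in the sources used here.

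**Figure D1:**
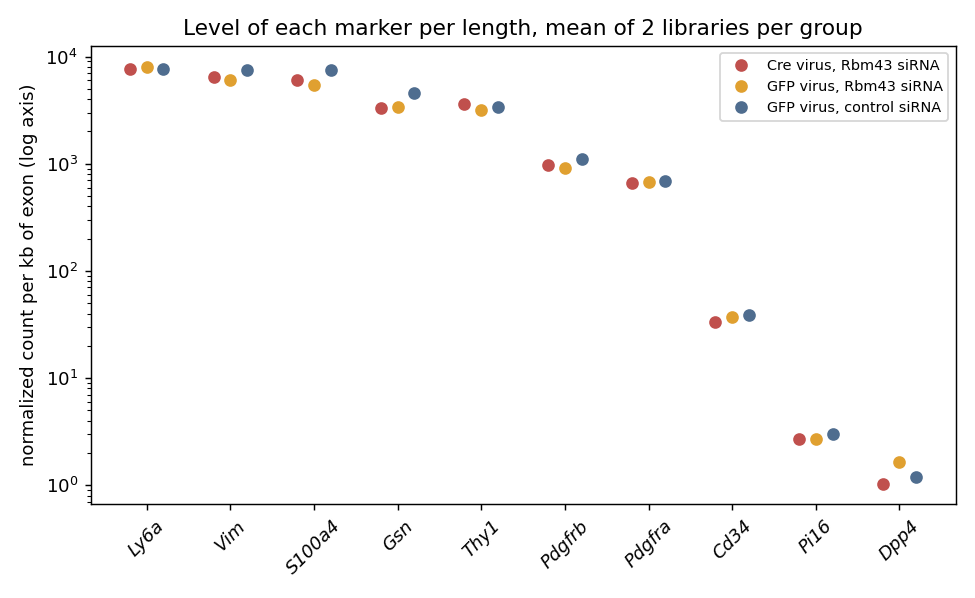
Mean normalized count per kilobase of exon (log axis) of each marker in the 3 groups, each point the mean of 2 libraries, in order of the mean over all libraries. Levels run from 7813 per kilobase for Ly6a to 1.29 for Dpp4, and the groups differ by far less than the genes do.

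Pdgfra encodes platelet-derived growth factor receptor alpha, which binds PDGF dimers of A, B and C chains and defines the adipocyte progenitor pool in mouse fat. In the mm10 build it lies at chr5:75152292-75198215 on the plus strand (GENCODE M21). It had 6579 and 6625 normalized counts with Cre virus and Rbm43 siRNA, 6673 and 6861 with GFP virus and Rbm43 siRNA, and 6954 and 6977 in the control libraries. The groups did not overlap in any pairing, but the whole span over the 6 libraries was small. Pdgfrb encodes the beta receptor, known from mural cells and from a part of the preadipocyte pool, and lies on chromosome 18. It had 5375 and 5329.75 normalized counts with Cre virus and Rbm43 siRNA, 5122 and 4884 with GFP virus and Rbm43 siRNA, and 6095 and 6055 in the control libraries. Both control libraries were above the other 4, and both Cre libraries were above both GFP libraries with Rbm43 siRNA.

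Ly6a encodes Sca1, a surface antigen used to sort mouse progenitors (chr15:74994877-74998031, minus strand). It had 9063 and 9468 normalized counts with Cre virus and Rbm43 siRNA, 10307 and 9045 with GFP virus and Rbm43 siRNA, and 9385 and 9223 in the control libraries. The 3 groups overlapped, and the GFP libraries with Rbm43 siRNA differed from each other by 13.04% of their mean. Thy1 encodes CD90, an antigen of stromal cells (chr9:44043384-44048579, plus strand). It had 10617 and 10850.1 normalized counts with Cre virus and Rbm43 siRNA, 9807 and 9154 with GFP virus and Rbm43 siRNA, and 10922 and 9196 in the control libraries. The control libraries stood 17.2% of their mean apart and enclosed both Cre libraries. Cd34 encodes a sialomucin of progenitors, also found on endothelial and blood progenitor cells (chr1:194938819-194961279, plus strand). It had 230.0 and 253 normalized counts with Cre virus and Rbm43 siRNA, 276 and 260.25 with GFP virus and Rbm43 siRNA, and 234 and 326 in the control libraries. The control libraries again spread widest, by 32.9% of their mean, and enclosed the GFP libraries with Rbm43 siRNA.

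Dpp4 encodes a dipeptidyl peptidase that marks early interstitial progenitors of mouse fat (chr2:62330073-62412231, minus strand). It had 7.83 and 5.27 normalized counts with Cre virus and Rbm43 siRNA, 11.7 and 9.33 with GFP virus and Rbm43 siRNA, and 5.20 and 9.74 in the control libraries. These values stand for 8 and 6, 12 and 10, and 5 and 8 reads in the same order. Exact Poisson 95% intervals were taken on the normalized scale, for counting error only. They ran from 1.69 to 12.1 for the lowest library and from 6.02 to 20.4 for the highest, and so overlapped. No difference between groups was tested for Dpp4. Pi16 encodes a peptidase inhibitor of early progenitors and adventitial fibroblasts (chr17:29317680-29330593, plus strand). It had 20.6 and 14.1 normalized counts with Cre virus and Rbm43 siRNA, 16.5 and 17.7 with GFP virus and Rbm43 siRNA, and 18.7 and 19.5 in the control libraries. The Cre libraries enclosed all 4 others, and every library held from 16 to 21 Pi16 reads.

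Vim encodes vimentin, the intermediate filament of mesenchymal cells (chr2:13573927-13582826, plus strand). It had 30508 and 30069.9 normalized counts with Cre virus and Rbm43 siRNA, 29356 and 27412 with GFP virus and Rbm43 siRNA, and 35705 and 35583 in the control libraries. Both control libraries were above all others. Gsn encodes gelsolin, which severs and caps actin filaments (chr2:35256380-35307892, plus strand). It had 10551.7 and 10567 normalized counts with Cre virus and Rbm43 siRNA, 11067 and 10500.5 with GFP virus and Rbm43 siRNA, and 14460.9 and 14329.8 in the control libraries. The control libraries stood clear of the other 4, among which the Cre libraries lay between the GFP libraries. S100a4 encodes a small calcium-binding protein also called fibroblast-specific protein (chr3:90603771-90606045, plus strand). It had 3442 and 3679 normalized counts with Cre virus and Rbm43 siRNA, 3444 and 2929 with GFP virus and Rbm43 siRNA, and 4371 and 4455 in the control libraries. Both control libraries were the highest, and the GFP libraries with Rbm43 siRNA stood 16.2% of their mean apart.

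**Figure D2:**
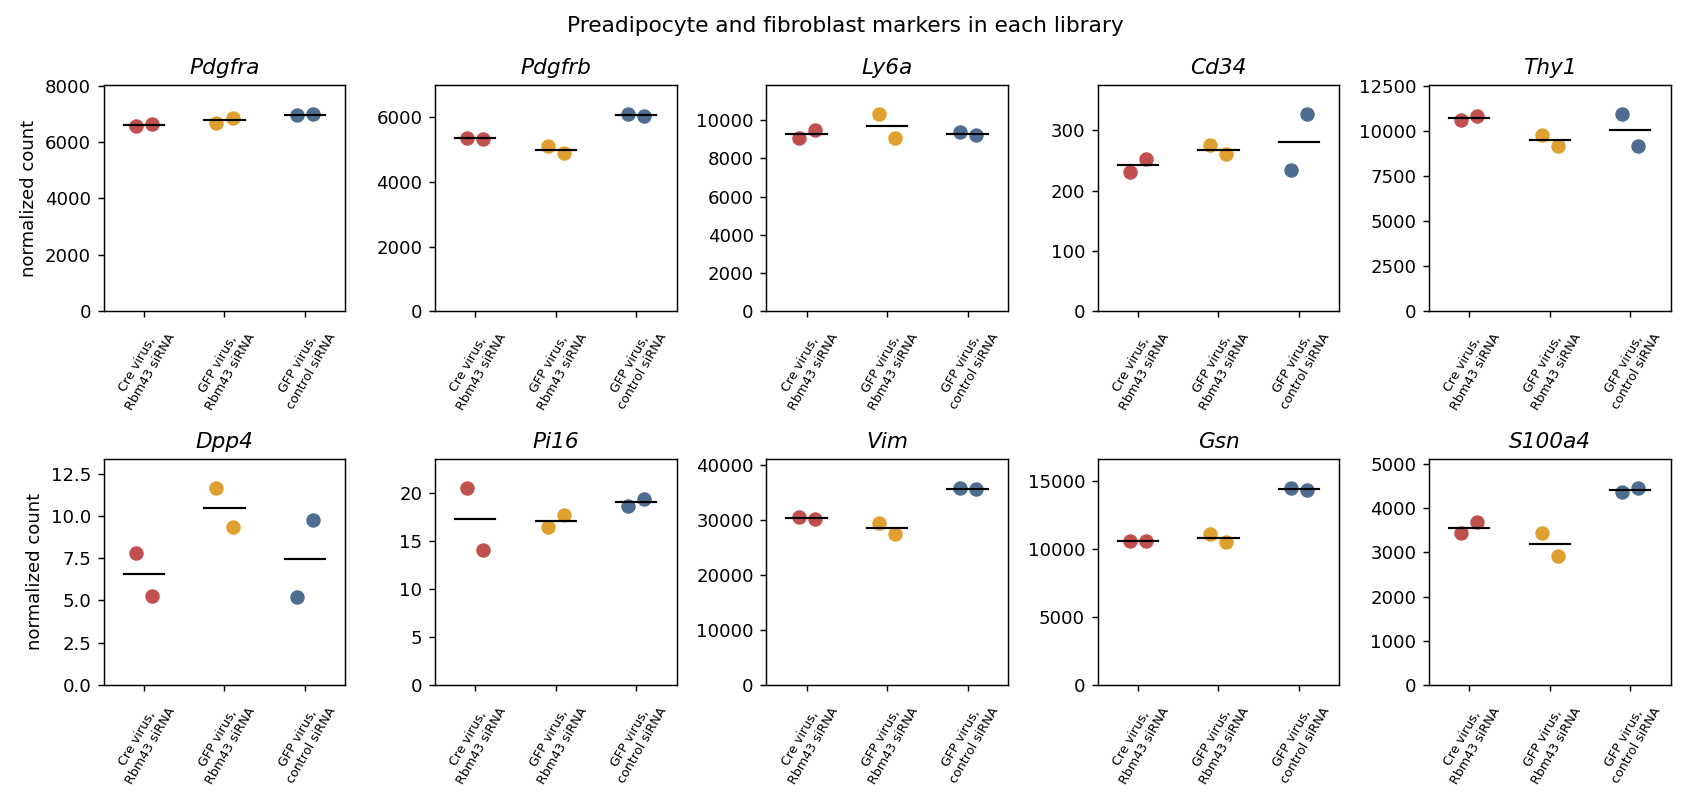
Normalized count of each marker in every library, 1 panel per gene with its own axis from 0, and the groups in the order Cre virus with Rbm43 siRNA, GFP virus with Rbm43 siRNA and GFP virus with control siRNA; each point is 1 library and each bar a group mean. Vim, Gsn, S100a4 and Pdgfrb are highest in both control libraries, where Gsn reaches 14460.9 and 14329.8, and Ly6a, Thy1 and Cd34 overlap between groups.

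Promoter sequence was looked up because Gsn and S100a4 were called as lower with Rbm43 siRNA in the results below, while Pdgfra did not pass the test. RefSeq (GRCm38.p6) start sites matched 7 of the 10 genes, and the 250 bases before a start are shown for these 3 genes where no annotated exon lies in that stretch. Gsn has several start sites, of which the most upstream and the most downstream are shown. All are on the plus strand and read 5′ to 3′, at chr3:90603520-90603769 for S100a4, chr2:35256109-35256358 and chr2:35282130-35282379 for Gsn, and chr5:75152001-75152250 for Pdgfra. Capitals mark matches, on either strand, to any of 6 motifs. These were the TATA box spelled TATAAA, the CCAAT box, the GC box spelled GGGCGG, the AP-1 site spelled TGANTCA, the TEAD site spelled GGAATG, and the CArG box.
S100a4: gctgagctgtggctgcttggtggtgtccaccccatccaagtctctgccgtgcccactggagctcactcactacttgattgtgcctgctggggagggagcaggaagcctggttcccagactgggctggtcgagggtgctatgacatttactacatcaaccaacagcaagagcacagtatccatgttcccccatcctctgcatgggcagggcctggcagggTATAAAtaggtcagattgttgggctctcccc
Gsn, upstream start: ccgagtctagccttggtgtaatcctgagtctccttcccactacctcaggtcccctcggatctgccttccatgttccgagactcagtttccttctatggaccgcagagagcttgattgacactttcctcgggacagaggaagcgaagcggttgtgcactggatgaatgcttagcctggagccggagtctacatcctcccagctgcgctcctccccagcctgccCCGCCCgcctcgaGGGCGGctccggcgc
Gsn, downstream start: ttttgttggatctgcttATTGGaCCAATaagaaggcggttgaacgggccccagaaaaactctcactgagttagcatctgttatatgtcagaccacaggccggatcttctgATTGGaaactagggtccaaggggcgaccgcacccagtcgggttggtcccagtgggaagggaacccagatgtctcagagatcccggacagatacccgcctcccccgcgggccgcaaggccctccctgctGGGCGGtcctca
Pdgfra: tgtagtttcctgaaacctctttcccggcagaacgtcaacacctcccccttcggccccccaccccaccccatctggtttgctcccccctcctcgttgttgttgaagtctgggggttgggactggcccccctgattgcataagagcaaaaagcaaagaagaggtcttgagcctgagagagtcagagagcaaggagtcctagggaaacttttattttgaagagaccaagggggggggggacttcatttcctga
The S100a4 stretch held a TATA box that begins 31 bases before the start, a motif found in 12.4% of all 32851 windows of this length. The upstream Gsn stretch held GC boxes 28 and 15 bases before the start, and the downstream one held 1 GC box and 3 CCAAT boxes, motifs found in 32.7% and 33.8% of all windows. The Pdgfra stretch held none of the 6. The AP-1, TEAD and CArG motifs, found in 6.75%, 12.6% and 1.47% of all windows, were absent from these 4 stretches. A match is a description of letters, and no binding was measured in this study.

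The first comparison asks what Rbm43 knockdown did to the markers in cells given GFP virus. S100a4, Gsn, Vim and Pdgfrb were lower with Rbm43 siRNA than with control siRNA, and the other 5 tested markers did not pass the test. Thus 4 of 9 tested markers fell and 0 rose, where 9.76% of all tested genes fell and 13.5% rose at the same threshold. The threshold was a Benjamini-Hochberg adjusted p of 0.05 over 14211 genes in limma. In bulk RNA, fewer cells of a type and less RNA of a gene per cell cannot be told apart. S100a4 averaged 3187 ± 364 normalized counts with Rbm43 siRNA and 4413 ± 59.1 with control siRNA (SD, n = 2 each), a log2 difference of -0.47 ± 0.06 (SE, limma adjusted p = 1.37e-05). Gsn averaged 10784 ± 401 with Rbm43 siRNA and 14395 ± 92.6 with control siRNA, a log2 difference of -0.42 ± 0.05 (adjusted p = 1.57e-06). The ratios of these group means were 0.722 for S100a4 and 0.749 for Gsn. Vim averaged 28384 ± 1374 with Rbm43 siRNA and 35644 ± 86.5 with control siRNA (log2 difference -0.33 ± 0.05, adjusted p = 4.45e-05), and Pdgfrb averaged 5003 ± 168 and 6075 ± 27.9 in the same groups (log2 difference -0.28 ± 0.05, adjusted p = 0.000172). Both Rbm43 siRNA libraries were below both control libraries for each of the 4 genes. The same libraries gave the calls, so this adds no support. Pdgfra and Pi16, which were not called, were separated in the same way. The share of all tested genes so separated was not counted. In the table as a whole, 4.19% of tested genes had a lower log2 difference than S100a4 and 11.6% a lower one than Pdgfrb.

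The progenitor-defining markers showed smaller differences in the same comparison. Pdgfra averaged 6767 ± 133 normalized counts with Rbm43 siRNA and 6966 ± 16.0 with control siRNA, and the 95% interval of its log2 difference ran from -0.14 to 0.05 (limma adjusted p = 0.559). For Ly6a the interval ran from -0.06 to 0.17 (adjusted p = 0.539), and for Thy1 from -0.21 to 0.05 (adjusted p = 0.391). For Pdgfra, Ly6a and Thy1 these intervals do not reach the fall estimated for Gsn. Cd34 and Pi16 were measured less well, with intervals from -0.31 to 0.22 (adjusted p = 0.843) and from -0.85 to 0.55 (adjusted p = 0.797). The median log2 difference was -0.15 over the 9 tested markers and -0.0056 over all tested genes. edgeR and DESeq2 on the recovered reads also called 4 markers each. Without the mean-variance trend S100a4 missed the threshold with an adjusted p of 0.0506, which left 3 called.

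The second comparison sets Cre virus against GFP virus under Rbm43 siRNA. The design text gives excision of Ppargc1a as the purpose of the Cre virus, and the deposited counts do not check it. None of the 9 tested markers passed the limma test, where 2.62% of all tested genes rose and 5.88% fell. With the libraries scaled to equal totals these were 565 rises and 734 falls, against 372 and 836 as deposited. Without the mean-variance trend 0 of the 14211 tested genes passed. Every limma call between Cre virus and GFP virus in the paragraphs below therefore rests on that trend. On the recovered reads, edgeR called 1336 and DESeq2 826 of the 14211 tested genes in this comparison. At an unadjusted p of 0.05, 3 of the markers passed, where 20.8% of all tested genes did, and edgeR and DESeq2 called 0 of the markers each. Thy1 averaged 10734 ± 165 normalized counts with Cre virus and 9480.55 ± 461 with GFP virus (SD, n = 2 each), a log2 difference of 0.18 ± 0.06 (SE) with a 95% interval from 0.05 to 0.31 (limma adjusted p = 0.0877). Both Cre libraries were above both GFP libraries for Thy1. S100a4 averaged 3560.45 ± 168 with Cre virus and 3187 ± 364 with GFP virus (log2 difference 0.16 ± 0.06, limma adjusted p = 0.127), but 1 GFP library lay between the Cre libraries. The S100a4 difference was 0.28 (adjusted p = 0.0113) without the first GFP and Rbm43 siRNA library and 0.047 (adjusted p = 0.811) without the second. Pdgfrb had a log2 difference of 0.10 ± 0.05 (adjusted p = 0.239) and Vim one of 0.09 ± 0.05 (adjusted p = 0.278), and for both genes the Cre libraries were the higher. The interval for Gsn ran from -0.13 to 0.07 (adjusted p = 0.778) and that for Pdgfra from -0.13 to 0.06 (adjusted p = 0.724). Cd34 was lower in both Cre libraries than in both GFP libraries, with an interval from -0.41 to 0.11 (adjusted p = 0.557). This count rested on the libraries in the fit: S100a4 and Thy1 were called as higher with Cre virus without either control library and in a fit of the 4 libraries compared alone, S100a4 without the first GFP and Rbm43 siRNA library, and Thy1 with total scaling.

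In the third comparison, Cre virus and Rbm43 siRNA together were set against the control libraries, so both treatments differ at once. The genes that fell were Gsn, S100a4, Vim and Pdgfrb, 4 of 9 tested, and 0 rose, where 6.28% of all tested genes fell and 8.47% rose. Gsn averaged 10559.5 ± 10.997 normalized counts with Cre virus and Rbm43 siRNA and 14395 ± 92.6 in the control libraries (SD, n = 2 each), a log2 difference of -0.45 ± 0.05 (SE, limma adjusted p = 1.51e-06). S100a4 had a log2 difference of -0.31 ± 0.06 (adjusted p = 0.00189), Vim one of -0.23 ± 0.05 (adjusted p = 0.00222) and Pdgfrb one of -0.18 ± 0.05 (adjusted p = 0.0111). For all 4, both Cre libraries were below both control libraries, but the calls came from these same libraries, so this adds no support. Pdgfra was also lower in both Cre libraries, but its log2 difference of -0.08 did not pass the test (95% interval -0.17 to 0.02, adjusted p = 0.287). The median was -0.18 over the tested markers and -0.0018 over all tested genes. Only the call for Gsn was left without the first Cre library or without the trend, and Gsn and S100a4 were left without the second Cre library. Without the first control library 6 were called, among them Cd34 (log2 difference -0.43, limma adjusted p = 0.00709) and Thy1 (0.22, adjusted p = 0.00102). edgeR and DESeq2 called 4 each.

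**Figure D3:**
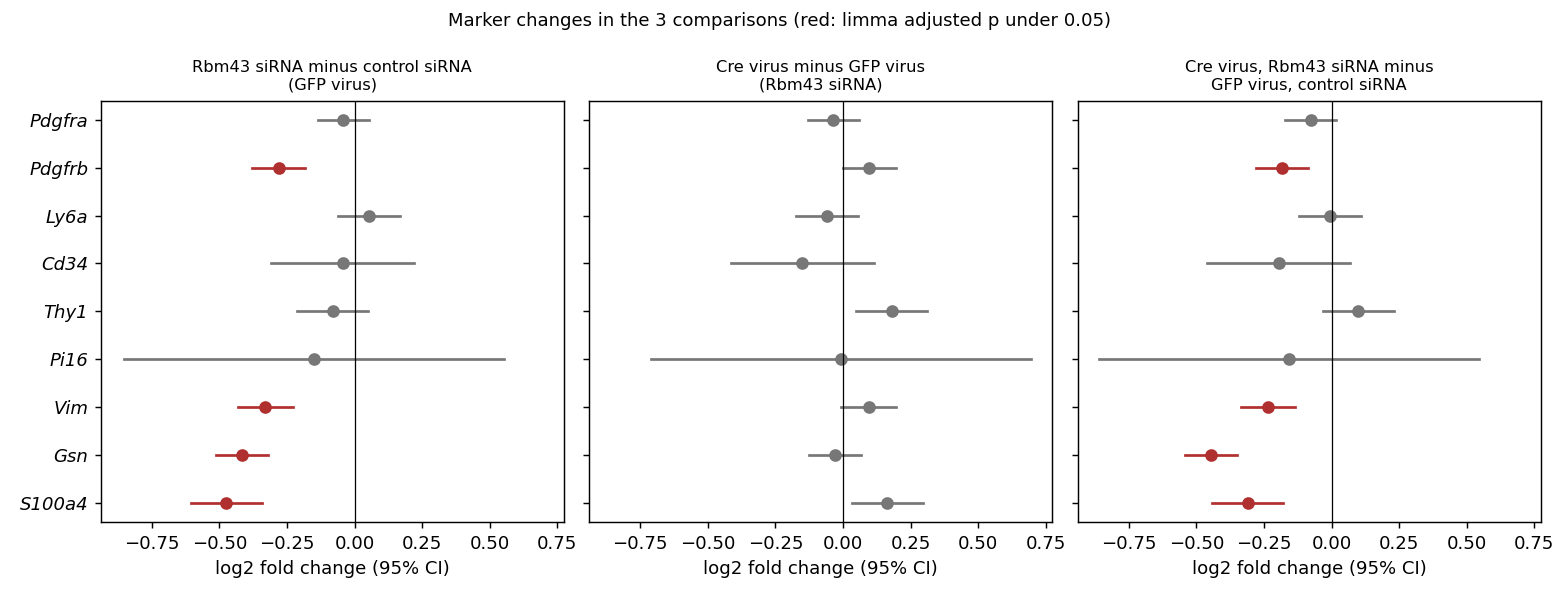
Log2 difference of each tested marker in the 3 comparisons, with 95% intervals from limma; red points passed an adjusted p of 0.05 and grey points did not. S100a4, Gsn, Vim and Pdgfrb lie below 0 under Rbm43 siRNA with GFP virus (-0.47 to -0.28) and again with Cre virus added (Gsn -0.45), and no marker passed between Cre virus and GFP virus.

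Each pair of comparisons shares a group of libraries, so their values are set side by side without a measure of likeness. Gsn had log2 differences from control libraries of -0.45 with Cre virus and Rbm43 siRNA and -0.42 with GFP virus and Rbm43 siRNA. S100a4 had -0.31 with Cre virus and -0.47 with GFP virus, Vim -0.23 and -0.33, and Pdgfrb -0.18 and -0.28 in that order. For these 3 genes the group means with Cre virus lay between those of the other groups, but the difference between Cre virus and GFP virus did not pass the test for any of them.

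Ratios to Pdgfra within each library do not depend on the scaling of libraries. Gsn over Pdgfra was 1.604 and 1.595 with Cre virus and Rbm43 siRNA, 1.658 and 1.531 with GFP virus and Rbm43 siRNA, and 2.079 and 2.054 in the control libraries. S100a4 over Pdgfra was 0.5231 and 0.5553 with Cre virus and Rbm43 siRNA, 0.5162 and 0.4269 with GFP virus and Rbm43 siRNA, and 0.6286 and 0.6385 in the control libraries. For both genes the 2 control libraries were above the other 4. Pdgfrb over Pdgfra was 0.817 and 0.8045 with Cre virus and Rbm43 siRNA, 0.7676 and 0.7119 with GFP virus and Rbm43 siRNA, and 0.8764 and 0.8679 in the control libraries. Vim over Pdgfra ran in the same order of groups, from 3.996 in a GFP and Rbm43 siRNA library to 5.134 in a control library. Thy1 over Pdgfra was 1.614 and 1.638 with Cre virus and Rbm43 siRNA, 1.47 and 1.334 with GFP virus and Rbm43 siRNA, and 1.571 and 1.318 in the control libraries. Ly6a over Pdgfra was 1.378 and 1.429 with Cre virus and Rbm43 siRNA, 1.545 and 1.318 with GFP virus and Rbm43 siRNA, and 1.35 and 1.322 in the control libraries. For Thy1 and Ly6a the Cre libraries were above the control libraries, and the 2 GFP virus groups overlapped. The balance among the markers therefore differed between groups, with Pdgfrb, Vim, Gsn and S100a4 lower relative to Pdgfra under Rbm43 siRNA in all 4 libraries that received it. The ratios are given as a description and were not tested.

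**Figure D4:**
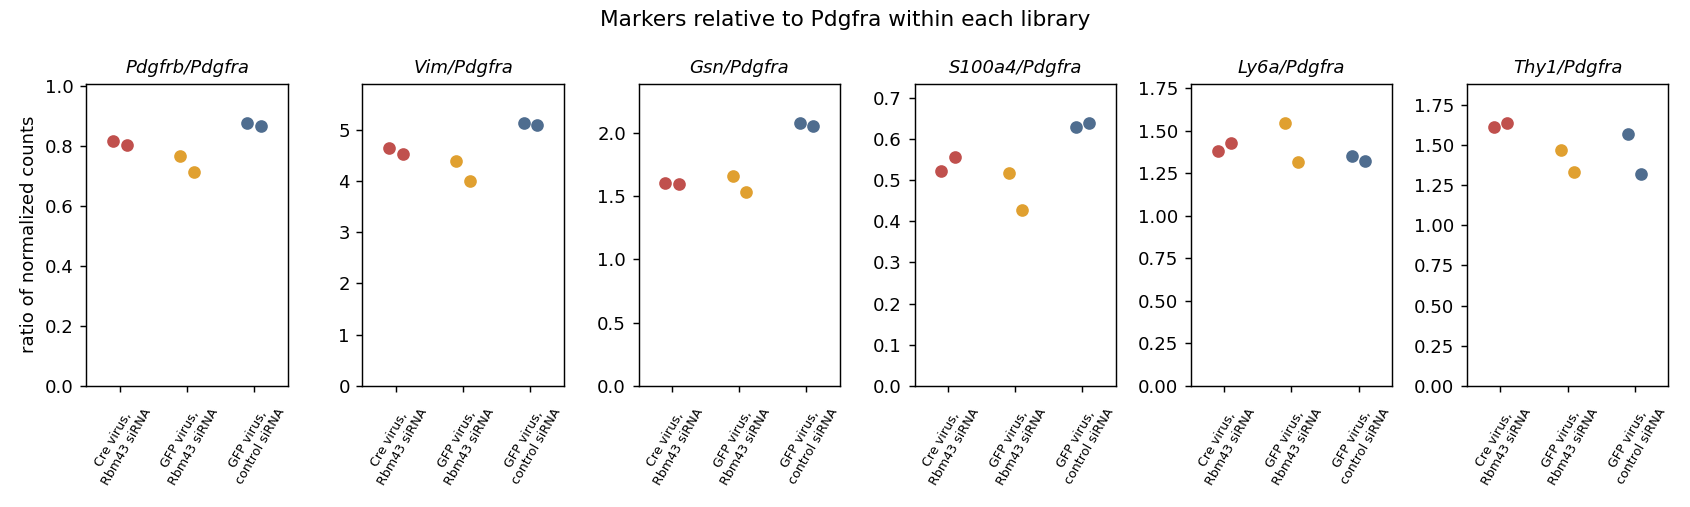
Ratio of 6 markers to Pdgfra within each library (normalized counts, axes from 0), with groups from left to right Cre virus with Rbm43 siRNA, GFP virus with Rbm43 siRNA and GFP virus with control siRNA; each point is 1 library. Gsn over Pdgfra is 2.079 and 2.054 in the control libraries and at most 1.658 in the others, and the 2 GFP virus groups overlap for Ly6a and Thy1.

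Summed over all 10 genes, the markers had 76393 and 76862 normalized counts with Cre virus and Rbm43 siRNA, 76079.8 and 71073.5 with GFP virus and Rbm43 siRNA, and 88152 and 86174 in the control libraries. Both control libraries were above the other 4, and the sum was 0.364% to 0.457% of all counts in a library. The sum is weighted towards Vim, its most abundant member by count, and Pdgfra, Ly6a, Thy1 and Cd34 did not pass the test on their own.

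The level of the markers relative to adipocyte genes depended on the adipocyte gene. Pdgfra over Adipoq was 0.3586 and 0.3637 with Cre virus and Rbm43 siRNA, 0.2972 and 0.2973 with GFP virus and Rbm43 siRNA, and 0.3148 and 0.3271 in the control libraries. Vim over Adipoq was 1.663 and 1.651 with Cre virus and Rbm43 siRNA, 1.307 and 1.188 with GFP virus and Rbm43 siRNA, and 1.616 and 1.668 in the control libraries. Relative to Adipoq, the Cre libraries were the highest for Pdgfra and overlapped the control libraries for Vim. Relative to Plin1, which coats the lipid droplet, Vim was 3.666 and 3.692 with Cre virus and Rbm43 siRNA, 3.079 and 2.839 with GFP virus and Rbm43 siRNA, and 4.656 and 4.781 in the control libraries. Relative to Fabp4, a fatty acid carrier, Pdgfra was 0.0412 and 0.0408 with Cre virus and Rbm43 siRNA, 0.0349 and 0.0360 with GFP virus and Rbm43 siRNA, and 0.0505 and 0.0556 in the control libraries. With Plin1 or Fabp4 below the line, the control libraries were the highest for both Pdgfra and Vim, and with each of the 3 adipocyte genes the GFP libraries with Rbm43 siRNA were the lowest. Adipoq itself was lower with Cre virus than with GFP virus under Rbm43 siRNA (log2 difference -0.32 ± 0.05 SE, limma adjusted p = 0.000178). Of 28 tested mature adipocyte genes, 0 rose and 15 fell with Cre virus against GFP virus under Rbm43 siRNA. Among all tested genes 2.62% rose and 5.88% fell, and 0 genes passed in this comparison without the mean-variance trend. With Rbm43 siRNA against control siRNA under GFP virus, 13 of the adipocyte genes rose and 8 fell, where 13.5% of all tested genes rose and 9.76% fell. The 15 falls were 5 and 7 without the first or the second Cre library and 9 without the second GFP and Rbm43 siRNA library.

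The ligands of the receptors were also read. Pdgfd, with 344 normalized counts per kilobase, had the highest level of the 4 ligands, followed by Pdgfa with 85.1, Pdgfc with 70.6 and Pdgfb with 5.42. Pdgfa, a ligand of the alpha receptor, had 309 and 297 normalized counts with Cre virus and Rbm43 siRNA, 242 and 215 with GFP virus and Rbm43 siRNA, and 276 and 254 in the control libraries. It was higher with Cre virus than with GFP virus under Rbm43 siRNA (log2 difference 0.41 ± 0.10 SE, limma adjusted p = 0.0134). Without the mean-variance trend 0 of all tested genes passed in that comparison. Pdgfd, a ligand of the beta receptor, was lower with Rbm43 siRNA than with control siRNA (-0.21 ± 0.07, adjusted p = 0.0301), while Pdgfb (-0.85 ± 0.31, adjusted p = 0.0546) and Pdgfc (0.17 ± 0.09, adjusted p = 0.211) did not pass. The Pdgfa call was lost without either Cre library or the second GFP and Rbm43 siRNA library (limma adjusted p 0.115 to 0.200). The Pdgfd call was lost without any 1 library but the first control library (adjusted p 0.0723 to 0.242), and its difference was -0.11 without the second control library. Over 25 ligands and signalling genes of the PDGF pathway, 3 rose and 3 fell with Rbm43 siRNA, shares near those of all tested genes (13.5% and 9.76%). Lrp1, a co-receptor of the beta receptor, was among the falls (-0.23 ± 0.05, limma adjusted p = 0.00174). These counts moved with single libraries, from 2 to 5 rises and from 1 to 3 falls when each was left out: 5 rose without the second control library, and 1 fell without either Cre library or without the second GFP and Rbm43 siRNA library. With total scaling 5 fell.

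Genes of the early progenitor state, for which Dpp4 and Pi16 are the best-known markers, were measured better than those 2. Of 14 tested genes of this list, 1 rose and 6 fell with Rbm43 siRNA against control siRNA, with a median log2 difference of -0.21; the 1 rise was 0 without the second GFP and Rbm43 siRNA library and 2 without the second control library. Igfbp6, a binding protein of insulin-like growth factors, fell the most clearly of the 4 with the smallest p (-0.54 ± 0.06 SE, limma adjusted p = 1.76e-06). Anxa3, an annexin, fell by 0.40, and Mfap5 and Fbn1, components of elastic microfibrils, fell by 0.37 and 0.28 on the log2 scale. With Cre virus against GFP virus under Rbm43 siRNA 3 rose and 0 fell, but 0 rose without either Cre library or without the second GFP and Rbm43 siRNA library, and 5 without either control library. As a background to these list counts, 13.5% of all tested genes rose and 9.76% fell with Rbm43 siRNA against control siRNA. With Cre virus against GFP virus 2.62% rose and 5.88% fell, and 0 genes passed without the mean-variance trend. Of 13 tested genes of the committed preadipocyte list, 5 rose and 2 fell with Rbm43 siRNA. This list holds Pparg and Fabp4, which adipocytes also express and which rose by 0.64 and 0.54, and the matrix gene Col15a1 and the lipoprotein gene Apoe, which fell by 0.75 and 0.65 on the log2 scale. Of 8 tested genes of CD142+ stromal cells, known in mouse fat for restraining adipocyte differentiation, 3 rose and 1 fell with Rbm43 siRNA. Steap4, a metalloreductase that adipocytes also express, rose by 1.00 and Clec11a fell by 0.43 on the log2 scale; 3 fell without the first control library and 0 without the second GFP and Rbm43 siRNA library.

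General fibroblast genes fell more often than they rose under Rbm43 siRNA. Of 23 tested, 2 rose and 12 fell, with a median of -0.17, and 7 fell without the second GFP and Rbm43 siRNA library. Pdpn, the mucin podoplanin, fell by 0.37 on the log2 scale and rose by 0.42 with Cre virus against GFP virus under Rbm43 siRNA. Cd44, the hyaluronan receptor, fell by 0.20 and rose by 0.48 in the same comparisons, and Itga5, a fibronectin receptor subunit, fell by 0.20 and rose by 0.43. Mme, a membrane endopeptidase, went the other way (0.35 and -0.53). Col3a1, the gene of the list with the highest normalized count, had log2 differences of 0.04 and 0.13, neither called. Col1a1, which was higher per kilobase (38276 against 30137 for Col3a1), fell by 0.17 with Rbm43 siRNA (limma adjusted p = 0.0437), a call lost without either Cre library, the first control library or the second GFP and Rbm43 siRNA library (adjusted p 0.0789 to 0.227). Under Cre virus 7 rose and 1 fell, and 3 rose without either Cre library or without the second GFP and Rbm43 siRNA library. Beside these counts, 13.5% of all tested genes rose and 9.76% fell with Rbm43 siRNA against control siRNA. With Cre virus against GFP virus 2.62% rose and 5.88% fell, and 0 genes passed without the mean-variance trend. Of 28 regulators of preadipocytes, 3 rose and 5 fell with Rbm43 siRNA. Among them were the transcriptional coactivator Wwtr1 (0.56) and the adipose transcription factor Ebf2 (0.50), which rose, and Sfrp2 (-0.42) and Tgfbr2 (-0.34), which fell. Without the first control library 5 rose, and without the second GFP and Rbm43 siRNA library 3 fell.

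Markers of other cell types were read beside these results. Among all tested genes, 13.5% rose and 9.76% fell with Rbm43 siRNA against control siRNA. With Cre virus against GFP virus 2.62% rose and 5.88% fell, and 0 genes passed without the mean-variance trend. Pdgfrb is shared with mural cells. Of 13 tested mural and smooth muscle genes, 4 rose and 0 fell with Rbm43 siRNA, and 6 rose and 0 fell with Cre virus against GFP virus under Rbm43 siRNA. The 6 rises were 3, 1 and 2 without the first Cre, the second Cre or the second GFP and Rbm43 siRNA library. Myh11, smooth muscle myosin, rose by 0.62 and 0.23 on the log2 scale in these comparisons, and Acta2, smooth muscle actin, by 0.19 and 0.24. The mural list summed to 74196 and 77564 normalized counts with Cre virus and Rbm43 siRNA, 64899 and 62234 with GFP virus and Rbm43 siRNA, and 59923 and 54460.2 in the control libraries. Acta2 is also expressed by activated fibroblasts, and the part of mural genes in the marker results was not tested. Endothelial cells also express Cd34, which had 230.0 to 326 normalized counts, and the 12 endothelial genes summed to between 619 and 769, with Flt1, the most abundant, at 321 to 365, Kdr at 96.2 to 159.9, Pecam1 at 36.4 to 62.4 and Cdh5 at 32.9 to 58.8. Kdr was higher with Cre virus and Rbm43 siRNA than in the control libraries (log2 difference 0.61 ± 0.13 SE, limma adjusted p = 0.00400), a call lost without the second Cre library (adjusted p = 0.0788), and the part of endothelial genes in the Cd34 values was not tested. The 14 macrophage genes, relevant because macrophages also express S100a4, summed to between 1792 and 2120. Of 13 tested, 0 rose and 3 fell with Rbm43 siRNA, namely Csf1r, Itgam and Cd14, but 1 fell without the first control library or without the second GFP and Rbm43 siRNA library, and 2 rose without the second control library. Lyz2, the most abundant of them, had 682.8 to 943 normalized counts. The lymphoid list, relevant to Thy1, summed to between 14.6 and 22.8, with 6 of 12 genes at 0 in every library, Cd3g among them. The 8 mesothelial genes summed to between 349.8 and 463, and the 8 Schwann cell genes to between 1087 and 1477. Proliferation genes were read as a sign of dividing, undifferentiated cells. Of 18 tested, 0 rose and 4 fell with Rbm43 siRNA, among them Top2a (-0.30), Ccna2 (-0.37) and Mki67 (-0.25). Their part in the marker results was not tested.

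**Figure D5:**
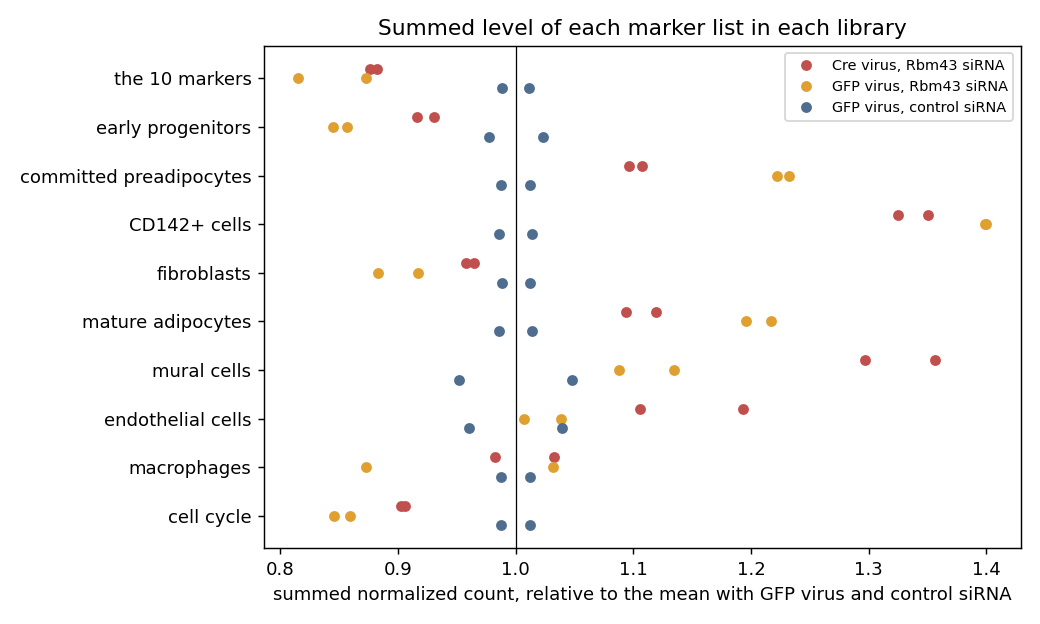
Summed normalized count of each gene list in every library, divided by the mean of the control libraries; colours mark Cre virus with Rbm43 siRNA, GFP virus with Rbm43 siRNA and GFP virus with control siRNA, and each point is 1 library. The 10 markers sum highest in the control libraries (88152 and 86174), and the mural list sums highest with Cre virus and Rbm43 siRNA (74196 and 77564).

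The markers differed in how they varied together over the 6 libraries. Pearson's r was 0.997 between Pdgfrb and Vim, 0.974 between Vim and S100a4 and 0.938 between Vim and Gsn. These values describe 6 libraries in 3 groups and largely restate the differences between the groups. Pdgfra was most like Gsn (r = 0.813), and Ly6a was like no other marker (highest r 0.177, with Cd34). Scaled to its own mean and SD, the average marker stood at -0.30 and -0.34 with Cre virus and Rbm43 siRNA, -0.14 and -0.69 with GFP virus and Rbm43 siRNA, and 0.71 and 0.76 SD in the control libraries. Among 10529 other genes with a mean of at least 100, those closest to this average profile were Man2b1, a lysosomal mannosidase (r = 0.997), Tbrg1 (r = 0.996), Osbpl5 (r = 0.995), Pygb, brain-type glycogen phosphorylase (r = 0.991), and Map3k12, a kinase (r = 0.990). These genes were picked for the highest r over 6 libraries in 3 groups, and shared regulation with the markers was not tested. Man2b1 had 948 and 955 normalized counts with Cre virus and Rbm43 siRNA, 968 and 889.9 with GFP virus and Rbm43 siRNA, and 1136 and 1136 in the control libraries.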

How the data were processed

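The authors deposited 1 normalized signal value per gene and library, which is a read count divided by a size factor of the library. Tools named in the submitters' processing notes, without roles, were STAR 2.7.8, fastp 0.23.2 and DESeq2 2.11.40.7, with mm10 as the build. Which counter, annotation and strand setting were used is not given in the sources used here. All deposited values (100%) came out as whole reads within 0.01 read, and 1 read was worth 0.878 to 1.217 normalized counts. Library groups came from sample titles. Genes that reached a normalized count of 10 in 2 or more libraries entered 1 limma 3.58.1 fit (R 4.3.3) of log2(normalized count + 1), with a mean for each group over the 6 libraries, a trended variance and 3 residual degrees of freedom. The procedure was tested on simulated data in which every gene had the same dispersion. The spread between replicates differed between the groups of these data, so the simulation differs from them there. Fold changes on this scale understate changes of low genes. Alternatives were edgeR 4.0.16 and DESeq2 1.42.0 on recovered reads, pseudocounts of 0.5 and 5, other filters and scalings, no trend, a replicate block, the 2 groups alone, and each library left out. Exon lengths and positions came from GENCODE M21 and promoters from RefSeq. The markers and 14 further lists were chosen with earlier results of these data known. All markers were named, and from other lists up to 4 genes with the smallest p plus the most abundant cell type marker. Adipoq, Plin1, Col1a1, Pecam1, Cdh5, Cd3g and the 4 PDGF ligands were named as context outside that rule. Some genes that the naming rule selects from the PDGF pathway list are not reported here.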

Additional observations from a re-analysis of the deposited data

How the results depend on the processing

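Over the markers' log2 differences, 419 of the alternative values kept direction and call, 12 newly passed, 9 no longer passed and 16 changed sign; all sign changes were of markers that had not passed. With Rbm43 siRNA against control siRNA under GFP virus, 4 markers were called, and 4 to 5 when each library was left out. With Cre virus against GFP virus under Rbm43 siRNA, 0 were called, against 1 with total scaling, 2 in a fit of only the groups compared, and 0 to 2 with a library left out. With Cre virus and Rbm43 siRNA against control libraries, 4 were called, against 1 without the mean-variance trend and 1 to 6 with a library left out. The cause was not tested. Replicate numbers did not pair the libraries (correlations of deviations -0.06, -0.05 and 0.11). The replicate block fit called 4, 1 (Thy1, limma adjusted p = 0.0397) and 4 markers in the 3 comparisons, and 3412, 1304 and 2214 genes in all, over which the other settings ranged from 1304 to 3634, 0 to 2070 and 433 to 2647. Leaving out a library gave, for Rbm43 siRNA against control siRNA, log2 differences from -0.041 to 0.15 for Ly6a, -0.28 to 0.19 for Cd34 and -0.21 to 0.043 for Thy1. For Cre virus against GFP virus they ran from -0.15 to 0.034 for Ly6a, -0.068 to 0.0081 for Gsn and -0.27 to 0.25 for Pi16. Pi16 changed sign in that comparison, from -0.01, to 0.0039 with upper-quartile scaling, 0.016 with total scaling, 0.0022 in edgeR and 0.0097 in DESeq2. For Cre virus and Rbm43 siRNA against control libraries they ran from -0.038 to 0.025 for Ly6a, -0.43 to 0.043 for Cd34, -0.025 to 0.22 for Thy1 and -0.42 to 0.10 for Pi16. Depth limits Dpp4 and Pi16, which had at most 12 and 21 reads in a library.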
